A study of Mus musculus with 6 samples.

Results

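The genes described here are nuclear genes, selected by symbol, that encode subunits of the 5 oxidative phosphorylation complexes. They are the protein-coding rows of the deposited table whose symbol begins with Nduf followed by a, b, c, s or v and a digit, is Sdha, Sdhb, Sdhc, Sdhd or Cyc1, or begins with Uqcr, with Cox4 to Cox8 and a letter, or with Atp5. The rule uses names and biotypes and no measured value, and it found 83 of the 25416 genes of the table. By symbol, 37 belong to complex I, 4 to complex II, 9 to complex III, 16 to complex IV and 17 to complex V. RNA-seq was made from AML12 cells, an established mouse hepatocyte line whose donor carried a transgene for human TGF alpha, a growth factor that acts through EGFR. The groups are siNC, cells given a scrambled RNA (n = 3), and siSetdb1, cells given siRNA against Setdb1 (n = 3). Both groups had the same transfection reagent, the same stated siRNA amount of 50 (unit written nm) and the same 72 h before RNA was taken. All 6 libraries come from this 1 line, and whether a group's libraries stem from separate cultures is not stated in the labels. The p-values therefore reflect only library-to-library spread, which may be technical.

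Complexes I to IV form the respiratory chain of the inner mitochondrial membrane. Complex I takes electrons from NADH and complex II from succinate, complex III passes them to cytochrome c, and complex IV hands them to oxygen, while complexes I, III and IV pump protons that complex V uses to make ATP. Complex II is also an enzyme of the citrate cycle and is encoded wholly in the nucleus, whereas the other complexes also hold subunits made from the mitochondrial genome. Hepatocytes are rich in mitochondria, and transcription of the nuclear subunit genes is known to depend in part on NRF1, GABP, YY1 and the estrogen-related receptors.

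The library totals recovered from the FPKM values and exon lengths were 16790582 to 17835060 reads, and 19731 to 20544 genes were above 0. Values are FPKM, reads scaled by exon length and by the library total, so levels of different genes are compared per length. Setdb1, which encodes a histone methyltransferase, measured 8.41, 8.54 and 9.43 FPKM in siNC and 4.29, 4.21 and 3.29 FPKM in siSetdb1, with no overlap (log2 fold change -0.995, adjusted p = 0.00183, limma). Over all genes, 1945 of 12846 tested passed, 1062 lower and 883 higher. When all libraries were scaled to a common sum of FPKM, 710 were lower and 1295 higher. Of 11 hepatocyte markers, Krt8 and Krt18 lay above 1000 FPKM and Hnf4a at 27.1 to 38.2 FPKM, whereas 4, Tat, Cps1, Serpina1a and Serpina1b, were below 1 FPKM in every library and Alb ranged from 1.45 to 14.3 FPKM. Of the other secreted products, Ttr fell, from 17.2 to 38.1 FPKM in siNC to 4.15 to 12.4 FPKM in siSetdb1 (log2 fold change -1.91, adjusted p = 0.0247). Apoa1 ranged from 13.5 to 28.6 FPKM in siNC and from 4.12 to 14.9 FPKM in siSetdb1 (-1.45, adjusted p = 0.0646) and Alb had -1.23 (adjusted p = 0.107), both with overlapping groups. Apob went the other way without passing, from 3.90 to 10.3 FPKM in siNC to 8.84 to 11.3 FPKM in siSetdb1. Its groups overlapped too (0.44, adjusted p = 0.344). Krt18 rose (0.30, adjusted p = 0.0364). The summed FPKM of the hepatocyte list, mostly keratin, was 2807 to 3212 in siNC and 3357 to 3470 in siSetdb1, and that of the 3 biliary markers found, mostly Krt19, was 1355 to 1619 and 1496 to 1666. The biliary markers Sox9 (4.95 ± 0.44 to 9.26 ± 1.49 FPKM, SD, n = 3, 0.78, adjusted p = 0.00680) and Krt7 (154 ± 12.7 to 218 ± 9.57 FPKM, 0.50, adjusted p = 0.00827) rose. All 5 fibroblast, 3 endothelial, 2 muscle and 2 testis markers found stayed below 1 FPKM in every library. Of the 3 leukocyte markers found, Cd68 fell (4.07 to 6.11 FPKM in siNC and 2.10 to 2.99 in siSetdb1, log2 fold change -0.84, adjusted p = 0.0120) and the other two were below 1 FPKM. The part of these marker differences in the results was not tested. The library siNC replicate 1 was the highest of all 6 in 55 of the 79 subunit genes tested, and siSetdb1 replicate 1 was the lowest in 39, so counts are given below with and without single libraries.

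Nuclear subunit genes of all 5 complexes were mostly a little lower after Setdb1 siRNA. Of 83 genes, 79 passed the filter of at least 0.5 FPKM in 3 or more libraries and were tested. At an adjusted p below 0.05 (limma, adjusted over all 12846 genes), 17 fell, 1 was called higher and 61 did not pass, so that 21.5% were called lower, beside a background of 8.27% of all genes tested. The background of higher calls was 6.87%. The log2 fold change was below 0 in 72 of 79, beside 53.3% of all genes. All 3 siSetdb1 libraries lay below all 3 siNC libraries in 46 of 79, beside 21.6%, and above them in 2, beside 17.6%. The median log2 fold change was -0.24, beside -0.02 over all genes tested, and the middle 50% of the subunit genes lay between -0.30 and -0.15. The number called lower depended on single libraries. It was 19, 7 and 14 of 79 without siNC replicates 1, 2 and 3 (24.1%, 8.86% and 17.7%), where 8.37%, 4.47% and 5.92% of all genes were lower. It was 2, 3 and 12 without siSetdb1 replicates 1, 2 and 3 (2.53%, 3.8% and 15.2%), where 2.54%, 2.55% and 4.06% of all genes were lower. Without siSetdb1 replicate 1 or 2, the share of subunit genes called lower was thus near that of all genes. The single calls also differed in how often they were lost over the 14 alternative fits. Sdhd was lost in none, Atp5h in 1, Uqcr10 in 2, Ndufa2, Ndufs4 and Atp5c1 in 3, Ndufb9 in 4, Atp5md in 5, and Ndufa1 and Atp5j2 in 6. Ndufa7 and Atp5k were lost in 8, Ndufb11 and Cox7a2 in 9, and Uqcrh, Cox7c and Atp5d in 10. The number with a log2 fold change below 0 was 70 to 73 of 79 in these 6 fits. In bulk RNA, fewer cells of a type and less RNA per cell cannot be told apart.

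**Figure D1:**
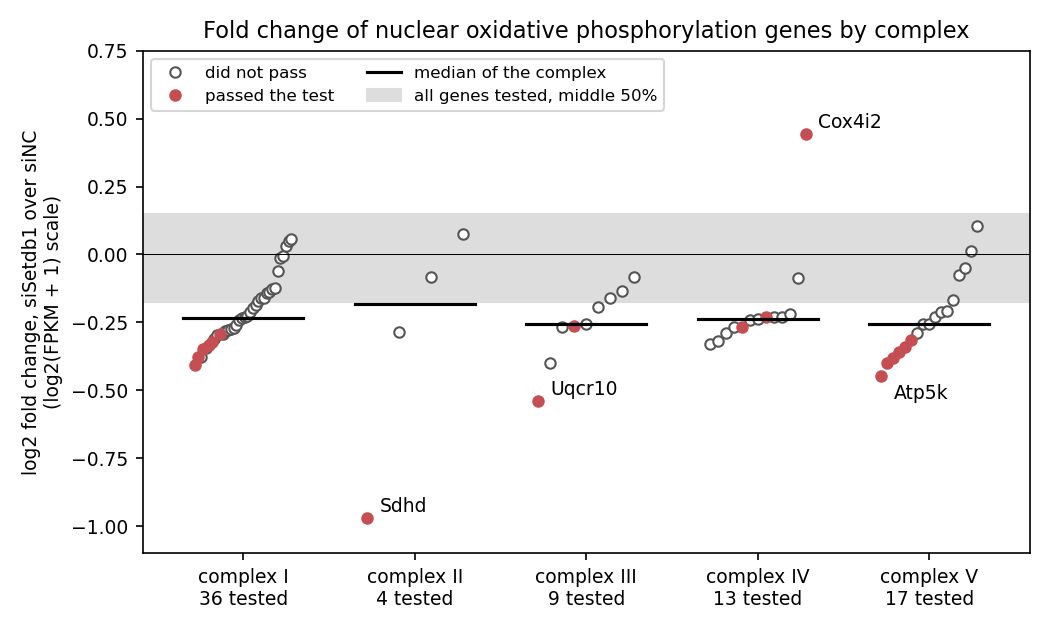
Log2 fold change of siSetdb1 over siNC (vertical axis, computed on log2(FPKM + 1)) of each tested nuclear subunit gene, by complex. Filled points passed the test, black bars are the medians of the complexes and the grey band holds the middle 50% of all 12846 genes tested (-0.18 to 0.15), and Sdhd (-0.97) and Cox4i2 (0.44) lie farthest from the other points.

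The median of each complex was below 0. The median log2 fold change was -0.23 in complex I (36 tested), -0.18 in complex II (4), -0.25 in complex III (9), -0.24 in complex IV (13) and -0.26 in complex V (17). The difference between these medians was not tested. The SD of the fold changes among the genes of a complex was 0.12 in complex I, 0.46 in complex II, 0.14 in complex III, 0.20 in complex IV and 0.15 in complex V. Over the 3 complex II genes other than Sdhd, the SD was 0.18 and the median -0.08. Genes that fell numbered 6 of 36 in complex I (16.7%), 1 of 4 in complex II (25%) and 2 of 9 in complex III (22.2%). They numbered 2 of 13 in complex IV (15.4%) and 6 of 17 in complex V (35.3%), beside 8.27% of all genes tested. The difference between complexes in these counts was not tested. All siSetdb1 libraries lay below all siNC libraries for 19, 3, 4, 9 and 11 genes of complexes I to V. These are 52.8%, 75%, 44.4%, 69.2% and 64.7% of the genes tested in each complex, beside 21.6% of all genes tested. For the parts of complexes and the related lists below, the share of all genes called lower is likewise 8.27%.

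The summed FPKM of the 83 genes was 6134, 5639 and 5324 in siNC replicates 1, 2 and 3 and 4599, 4777 and 4888 in siSetdb1. The lowest siNC library thus lay above the highest siSetdb1 library. The group means were 5699 ± 409 and 4755 ± 146 (SD, n = 3), a change of -16.6%, while the sum over all genes of the table changed by -5.49%. As a share of all FPKM, the subunit genes made up 1.72%, 1.63% and 1.56% in siNC and 1.42%, 1.45% and 1.46% in siSetdb1. The sums changed by -14.1% for complex I, -21.5% for complex II, -17.1% for complex III, -17.0% for complex IV and -17.9% for complex V. Complex II without Sdhd changed by -5.10%. Complex IV had the largest sum of the 5 (2069 ± 162 FPKM in siNC, SD, n = 3) and complex II the smallest (194 ± 10.5 FPKM). Cox8a alone held 820 ± 82.9 FPKM of the complex IV sum in siNC. In siSetdb1 it held 656 ± 37.5 of 1718 ± 58.7 FPKM.

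**Figure D2:**
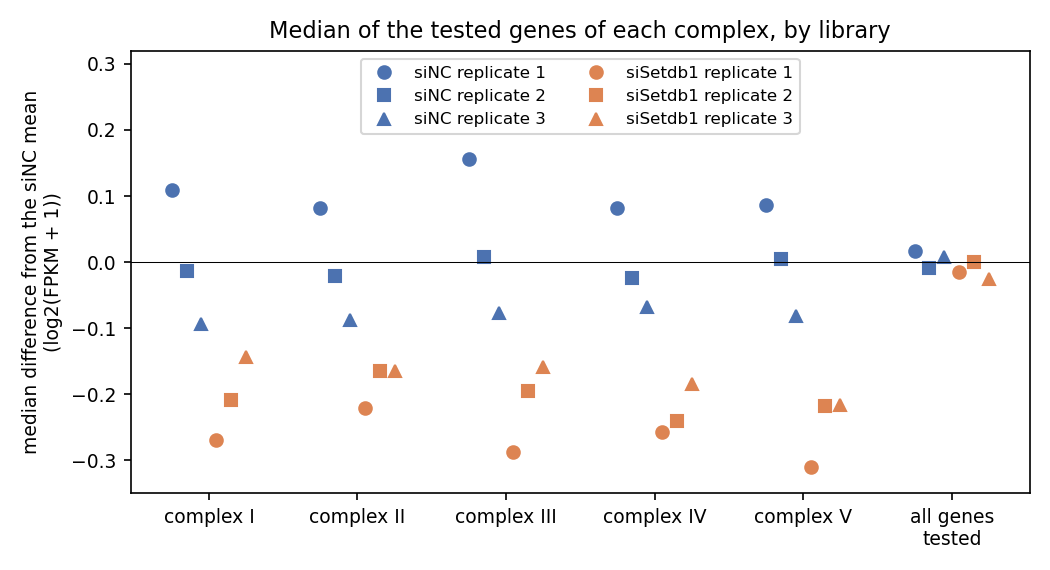
Median over the tested genes of each complex of the difference from the siNC mean (log2(FPKM + 1), vertical axis), for each library. In every complex the siNC libraries lie above the siSetdb1 libraries, with siNC replicate 1 highest and siSetdb1 replicate 1 lowest, while the medians over all genes tested lie between -0.03 and 0.02.

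The libraries of a group differed among themselves in the same way across the complexes. Over the 79 genes, the median difference from the siNC mean was 0.09, -0.01 and -0.08 in siNC replicates 1, 2 and 3 and -0.29, -0.22 and -0.17 in siSetdb1. The groups did not overlap, but the gap between siNC replicate 3 and siSetdb1 replicate 3 was smaller than the spread within siNC. Without siNC replicate 1 the median log2 fold change of the 79 genes was -0.18.

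Complex I has a peripheral arm, made of the N module that binds NADH and the Q module that reduces ubiquinone, and a membrane arm that pumps protons. Of 10 N module genes, 3 fell (median -0.28), of 6 Q module genes none fell (-0.21), and of 19 tested accessory genes of the membrane arm 3 fell (-0.26). None of the 7 conserved core subunit genes passed (median -0.23). Of the 29 tested accessory subunit genes, with Ndufa4 counted among them by symbol, 6 fell (-0.26). The difference between core and accessory genes was not tested.

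In the N module, Ndufa7, an accessory subunit, measured 53.3, 41.9 and 47.9 FPKM in siNC and 35.7, 32.0 and 39.2 FPKM in siSetdb1. The groups did not overlap, although the siNC libraries differed widely (log2 fold change -0.41 ± 0.11 SE, adjusted p = 0.0442, limma). Ndufs4, an accessory subunit whose loss is a known cause of Leigh syndrome, measured 19.3, 19.3 and 20.7 FPKM in siNC and 15.3, 15.1 and 16.03 FPKM in siSetdb1. Both groups were narrow and apart (-0.33 ± 0.07 SE, adjusted p = 0.0171). Ndufa2, a small thioredoxin-fold subunit, measured 75.7, 69.5 and 70.8 FPKM in siNC and 55.9, 53.7 and 59.4 FPKM in siSetdb1, again without overlap (-0.35, adjusted p = 0.0180). In contrast, Ndufs1, the largest core subunit with several iron-sulfur clusters, measured 9.08, 11.2 and 11.6 FPKM in siNC and 10.6, 11.2 and 11.1 FPKM in siSetdb1. Its groups overlapped (0.06, 95% interval -0.16 to 0.28, adjusted p = 0.714), and this was the largest positive value in complex I. Its sign depended on siNC replicate 1, the lowest library, and was negative without it (-0.04) and also once fold changes were corrected for GC content and length (-0.02).

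In the membrane arm, Ndufa1, a single-pass membrane subunit, measured 58.3, 64.5 and 67.1 FPKM in siNC and 44.5, 48.0 and 53.3 FPKM in siSetdb1 (-0.38 ± 0.09 SE, adjusted p = 0.0310). Here siNC replicate 1 was the lowest siNC library, unlike in most subunit genes, and the groups did not overlap. Ndufb9 changed from 32.4 ± 1.29 to 25.7 ± 0.94 FPKM (SD, n = 3, adjusted p = 0.0190) and Ndufb11 from 115 ± 9.85 to 93.3 ± 4.003 FPKM (adjusted p = 0.0471). Both encode small accessory subunits, and 15.6% and 17.5% of their 50-base stretches also occur in other annotated genes, so reads could be shared. Ndufa4, the most abundant gene counted in complex I (136.8 FPKM in siNC), encodes a protein now known to sit in complex IV. It measured 138, 146 and 127 FPKM in siNC and 117, 130 and 113 FPKM in siSetdb1, with overlapping groups (-0.19, adjusted p = 0.168). Counted in complex IV, it gave medians of -0.23 for both complexes. Ndufb2 was not tested, at 0.51 ± 0.05 FPKM in siNC and 0.38 ± 0.08 FPKM in siSetdb1 (29 to 55 reads over 5628 exon bases). Ndufs3, a core Q module gene, was also low for a core subunit, at 1.36 to 2.74 FPKM in siNC and 1.18 to 2.15 FPKM in siSetdb1 (adjusted p = 0.495). Of its 50-base stretches 17.9% occur in other annotated genes.

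In complex II, Sdhd, which encodes the small membrane anchor subunit that helps to hold ubiquinone, was the subunit gene with the largest fall. It measured 74.7, 72.2 and 68.1 FPKM in siNC and 36.5, 34.6 and 37.0 FPKM in siSetdb1. The highest siSetdb1 library lay well below the lowest siNC library, and both groups were narrow. The mean went from 71.6 ± 3.33 to 36.0 ± 1.28 FPKM (SD, n = 3), a change of -49.7% (log2 fold change -0.97, 95% interval -1.13 to -0.82, adjusted p = 0.000692, limma). These values rest on 1543, 1546 and 1439 recovered reads in siNC, against 776, 727 and 813 in siSetdb1. None of its 50-base stretches occurs in another annotated gene, and no other gene covers its exons. Its fold change ranked 57 from the lowest of the 12846 genes tested. It passed in all 14 alternative fits, leaving out each library included, with adjusted p of at most 0.00914.

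The other complex II genes did not pass. Sdha, the flavoprotein that oxidizes succinate, measured 46.0, 44.0 and 47.1 FPKM in siNC and 42.5, 43.5 and 43.2 FPKM in siSetdb1 (-0.08, 95% interval -0.22 to 0.06, adjusted p = 0.386). Sdhb, the iron-sulfur subunit, measured 48.5, 46.5 and 40.5 FPKM in siNC and 46.0, 49.3 and 47.4 FPKM in siSetdb1 (0.08, 95% interval -0.11 to 0.27, adjusted p = 0.555). The Sdha libraries did not overlap by a narrow margin, and those of Sdhb did overlap. Sdhc, the other membrane anchor and the partner of Sdhd, measured 36.8, 29.6 and 29.6 FPKM in siNC and 24.9, 26.4 and 26.6 FPKM in siSetdb1 (-0.28, 95% interval -0.51 to -0.06, adjusted p = 0.0840). Its groups did not overlap, and siNC replicate 1 lay well above the other siNC libraries. The intervals of all 3 genes lie wholly above that of Sdhd. In siNC, Sdhd had the highest level per length of the 4 genes, and in siSetdb1 it was second lowest, above Sdhc.

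**Figure D3:**
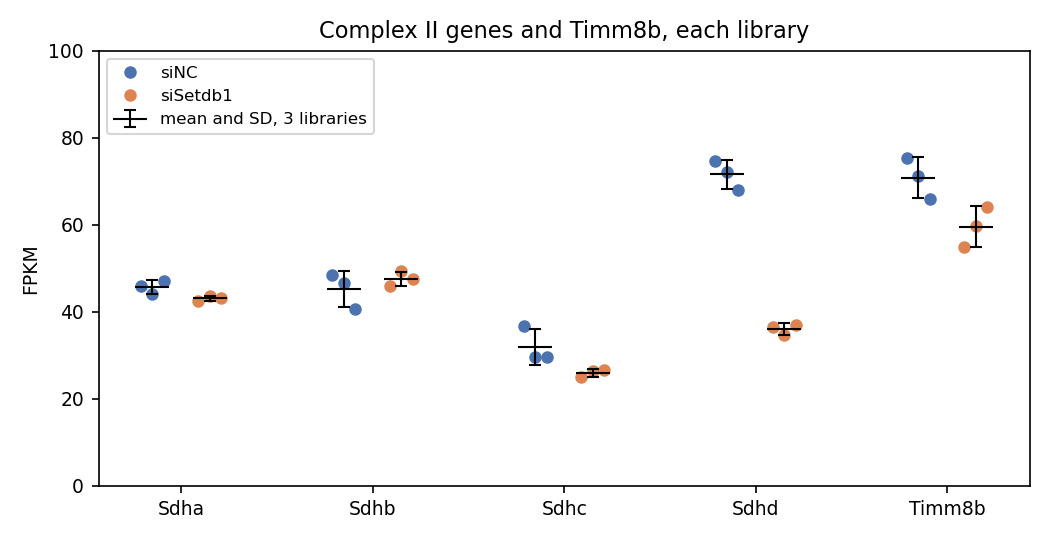
FPKM (vertical axis) of the 4 complex II genes and of Timm8b, the neighbour of Sdhd, in each library (points), with mean and SD of 3 libraries. The Sdhd libraries separate widely (71.6 against 36.0 FPKM), Sdhb overlaps, and Timm8b goes from 70.8 to 59.6 FPKM.

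Sdhd lies on the minus strand of chromosome 9 (50596357 to 50603812 in GENCODE M21, GRCm38), and Timm8b, which encodes a small chaperone of protein import into mitochondria, is transcribed away from it on the plus strand. In RefSeq the 2 starts of transcription are 52 bases apart. Timm8b measured 75.3, 71.2 and 65.9 FPKM in siNC and 54.9, 59.8 and 64.1 FPKM in siSetdb1 (-0.25, 95% interval -0.44 to -0.05, adjusted p = 0.0870). Its groups did not overlap, and its interval does not reach that of Sdhd (-1.13 to -0.82). The promoter of Sdhd is shown beside those of Uqcr10 and Atp5k, the next largest falls among the genes that passed. They are RefSeq windows of 250 bases before to 50 after the start (GRCm38.p6, 5′ to 3′ on the gene's strand), at chr9:50603800-50604099 for Sdhd, chr11:4704295-4704594 for Uqcr10 and chr5:108434350-108434649 for Atp5k, all on the minus strand. Capitals mark matches, on either strand, to 5 motifs, which are CCGGAAG for ETS factors such as GABP, TCAAGGTCA for estrogen-related receptors (ERR), GCGCATGCG for NRF1, TGACGTCA for CREB and AAGATGGCG for YY1.
Sdhd: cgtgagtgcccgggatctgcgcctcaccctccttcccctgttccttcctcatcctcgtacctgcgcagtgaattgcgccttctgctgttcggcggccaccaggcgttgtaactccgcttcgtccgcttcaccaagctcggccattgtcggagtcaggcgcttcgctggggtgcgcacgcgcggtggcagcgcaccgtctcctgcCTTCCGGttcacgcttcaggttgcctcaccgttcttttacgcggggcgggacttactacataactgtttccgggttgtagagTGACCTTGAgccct
Uqcr10: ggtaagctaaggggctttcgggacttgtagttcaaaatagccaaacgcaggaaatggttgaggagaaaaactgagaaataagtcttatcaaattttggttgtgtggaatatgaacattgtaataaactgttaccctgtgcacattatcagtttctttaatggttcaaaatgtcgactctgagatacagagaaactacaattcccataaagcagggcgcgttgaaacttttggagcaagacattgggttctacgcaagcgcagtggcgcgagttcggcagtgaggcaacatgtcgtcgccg
Atp5k: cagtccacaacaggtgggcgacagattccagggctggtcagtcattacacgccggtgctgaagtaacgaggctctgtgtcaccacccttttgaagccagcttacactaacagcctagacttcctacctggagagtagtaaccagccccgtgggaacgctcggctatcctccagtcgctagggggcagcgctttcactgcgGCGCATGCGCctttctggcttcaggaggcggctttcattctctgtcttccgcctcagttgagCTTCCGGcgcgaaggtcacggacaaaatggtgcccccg
The Sdhd window holds an ETS match whose first base is at -46 from the Sdhd start, between the starts of Sdhd and Timm8b, and an ERR match at 36. The Atp5k window holds an NRF1 match on both strands at -50 and -49 and an ETS match at 12, and the Uqcr10 window holds none of the 5. A match describes letters and shows neither binding nor a cause, and no match says only that these letters are not in the window.

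RefSeq windows were found for 68 of the 83 genes, 73 windows in all, and were set beside 32851 windows of all genes in the table of promoters. The ETS motif was in 17 of 73 (23.3%), beside 8.86% of all windows, and the NRF1 motif in 8 (11.0%), beside 1.75%. The YY1 motif was in 7 (9.59%, beside 1.4%), the CREB motif in 4 (5.48%, beside 1.79%) and the ERR motif in 2 (2.74%, beside 0.423%), those of Sdhd and Atp5g3. Among the 18 windows of the genes that fell, ETS was in 5, YY1 in 2, NRF1 and ERR in 1 each and CREB in none. Ndufa7, Atp5c1 and Atp5d each gave several of these windows, and Ndufa2 and Ndufb9 gave none. Unlike Sdhd, Atp5g3, a gene for subunit c of ATP synthase, did not pass (71.4 ± 6.65 to 60.7 ± 6.44 FPKM, SD, n = 3, adjusted p = 0.161).

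In complex III, both genes that fell encode small accessory subunits. Uqcr10 measured 148.9, 121 and 129.9 FPKM in siNC and 88.2, 87.9 and 97.5 FPKM in siSetdb1. The groups stood well apart (-0.54 ± 0.09 SE, adjusted p = 0.0104, limma), and 2.76% of all genes tested had a log2 fold change of -0.54 or lower. It did not pass without siSetdb1 replicate 1 (-0.52, adjusted p = 0.0510) or 2 (-0.51, adjusted p = 0.0511). No 50-base stretch of Uqcr10 occurs in another annotated gene. Uqcrh, the hinge protein that binds cytochrome c1, went from 50.9 ± 2.91 to 42.2 ± 1.49 FPKM (SD, n = 3, -0.26, adjusted p = 0.0428), a call lost in 10 of 14 alternative fits, with adjusted p up to 0.160. None of the 4 core genes passed (median -0.22). Uqcrfs1, the Rieske iron-sulfur protein, had the smallest difference, at 102.3, 97.9 and 92.3 FPKM in siNC and 90.9, 92.8 and 92.3 FPKM in siSetdb1, with overlapping groups (-0.08, adjusted p = 0.427). Cyc1, which encodes cytochrome c1, measured 100.5, 90.4 and 80.5 FPKM in siNC and 73.7, 74.8 and 77.7 FPKM in siSetdb1, without overlap (-0.25, adjusted p = 0.0934).

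In complex IV, the nuclear subunits surround the catalytic core that the mitochondrial genome encodes, and several exist as isoforms of different tissues. Cox7a2, the isoform of Cox7a found in most tissues, measured 81.1, 79.9 and 73.7 FPKM in siNC and 65.2, 66.0 and 63.2 FPKM in siSetdb1. Cox7c, another small subunit, measured 152.0, 148.4 and 152.1 FPKM in siNC and 122.8, 129.7 and 132.5 FPKM in siSetdb1. Neither gene's groups overlapped, and these were the 2 complex IV genes that fell (-0.27, adjusted p = 0.0360 for Cox7a2, and -0.23, adjusted p = 0.0458 for Cox7c). Their calls were lost in 9 and 10 of 14 alternative fits, while Cox4i1 and Cox8a, which did not pass here, passed in 4 and 3. Of the 50-base stretches of Cox7c 22.1% occur in other annotated genes. Cox8a had the highest level of all 83 genes, at 902, 822 and 737 FPKM in siNC and 613, 673 and 682 FPKM in siSetdb1. Its groups did not overlap, but it missed the threshold (-0.32 ± 0.09 SE, adjusted p = 0.0574). Cox6a1 (293 ± 31.3 to 248 ± 8.88 FPKM, SD, n = 3, adjusted p = 0.115) and Cox6b1 (212 ± 29.8 to 178 ± 6.98 FPKM, adjusted p = 0.155) did not pass either. Cox7b had the smallest difference among the abundant ones, from 165 ± 12.4 to 155 ± 10.2 FPKM (adjusted p = 0.503).

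Cox4i2 was the 1 subunit gene called higher, and it entered the test only through the libraries in which it is high, so the call carries little weight. It encodes the isoform of Cox4 known from lung and from cells short of oxygen, and it measured 0.45, 0.44 and 0.52 FPKM in siNC and 1.03, 0.97 and 1.00 FPKM in siSetdb1. The groups did not overlap (0.44 ± 0.09 SE, adjusted p = 0.0173), but the values rest on 6, 6 and 7 reads against 14, 13 and 14. The gene was not tested with a filter of 1 FPKM, and it did not pass with limma-voom on recovered reads (adjusted p = 0.0543) or without siNC replicate 2 or any 1 siSetdb1 library (adjusted p 0.0553 to 0.0796). Cox4i1, the isoform of most tissues, was far higher per length, at 147, 121 and 119 FPKM in siNC and 98.3, 99.004 and 109 FPKM in siSetdb1, again without overlap (-0.33, adjusted p = 0.0553). Cox4i2 made up 0.37% ± 0.06 of the summed FPKM of the 2 isoforms in siNC and 0.97% ± 0.06 in siSetdb1 (SD, n = 3). For Cox7a, the muscle isoform Cox7a1 made up 9.85% ± 2.204 and 9.88% ± 1.89 of Cox7a1 plus Cox7a2. Cox7a1 itself did not pass (8.52 ± 1.70 to 7.11 ± 1.35 FPKM, adjusted p = 0.363), nor did Cox7a2l, which helps to join complexes III and IV (74.1 ± 4.38 to 63.5 ± 3.00 FPKM, adjusted p = 0.0810). Cox6a2, known from muscle, and Cox6b2 and Cox7b2, known from testis, had at most 6 reads in any library and were not tested.

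In complex V, 2 of the 5 genes of the catalytic F1 head and central stalk fell, with 1 of the 4 peripheral stalk genes and 3 of the 8 genes of the membrane part. The medians were -0.26, -0.06 and -0.26. Atp5c1, the gamma subunit that turns inside the head, measured 181, 166 and 159 FPKM in siNC and 129, 124 and 134 FPKM in siSetdb1 (-0.38 ± 0.07 SE, adjusted p = 0.0167, limma). Atp5d, the delta subunit of the central stalk, went from 152 ± 12.8 to 122 ± 8.70 FPKM (SD, n = 3, adjusted p = 0.0485). The groups of both genes were apart, with siNC replicate 1 highest. Atp5b, the catalytic beta subunit and the most abundant complex V gene, measured 405, 368 and 329 FPKM in siNC and 311, 308 and 299 FPKM in siSetdb1. The groups did not overlap, yet the siNC libraries were spread wide and the gene did not pass (-0.26, adjusted p = 0.0861).

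Atp5h, subunit d of the peripheral stalk, measured 87.6, 83.0 and 77.7 FPKM in siNC and 64.4, 61.0 and 61.8 FPKM in siSetdb1. The groups stood well apart (-0.40 ± 0.07 SE, adjusted p = 0.0111), and 19.9% of its 50-base stretches occur in other annotated genes. The other peripheral stalk genes Atp5f1, Atp5j and Atp5o had log2 fold changes of -0.07, 0.01 and -0.05. Atp5o was low, at 1.67 ± 0.24 and 1.58 ± 0.32 FPKM (SD, n = 3), and 41.6% of its 50-base stretches occur in other genes, so its level is uncertain. In the membrane part, Atp5k, subunit e at the dimer interface, measured 26.4, 23.3 and 24.5 FPKM in siNC and 15.7, 21.1 and 17.1 FPKM in siSetdb1 (-0.45 ± 0.11 SE, adjusted p = 0.0356). The siSetdb1 libraries were spread wide but stayed below siNC. Atp5j2, subunit f, went from 35.9 ± 2.81 to 27.7 ± 0.67 FPKM (SD, n = 3, adjusted p = 0.0209) and Atp5md, a small membrane subunit, from 47.9 ± 2.13 to 37.6 ± 2.47 FPKM (adjusted p = 0.0232). Atp5l, subunit g, went the other way without passing, at 3.68, 3.67 and 3.61 FPKM in siNC and 3.93, 4.12 and 3.96 FPKM in siSetdb1. Its groups did not overlap (0.10, adjusted p = 0.327), and its sign turned once trends with GC content and length were removed (-0.03). The 3 genes for subunit c, which give the same mature protein, had much the same shares of the summed FPKM in both groups. Atp5g1 held 5.11% ± 0.33 in siNC and 5.20% ± 0.39 in siSetdb1, Atp5g2 52.1% ± 1.12 and 51.2% ± 2.70, and Atp5g3 42.7% ± 0.80 and 43.6% ± 2.45 (SD, n = 3). Of the 50-base stretches of Atp5g1 11.1% and of Atp5g2 38.3% occur in other genes, and none of Atp5g3 does. FPKM also divides by 4912, 1675 and 2181 exon bases, so the sizes of these shares are uncertain.

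**Figure D4:**
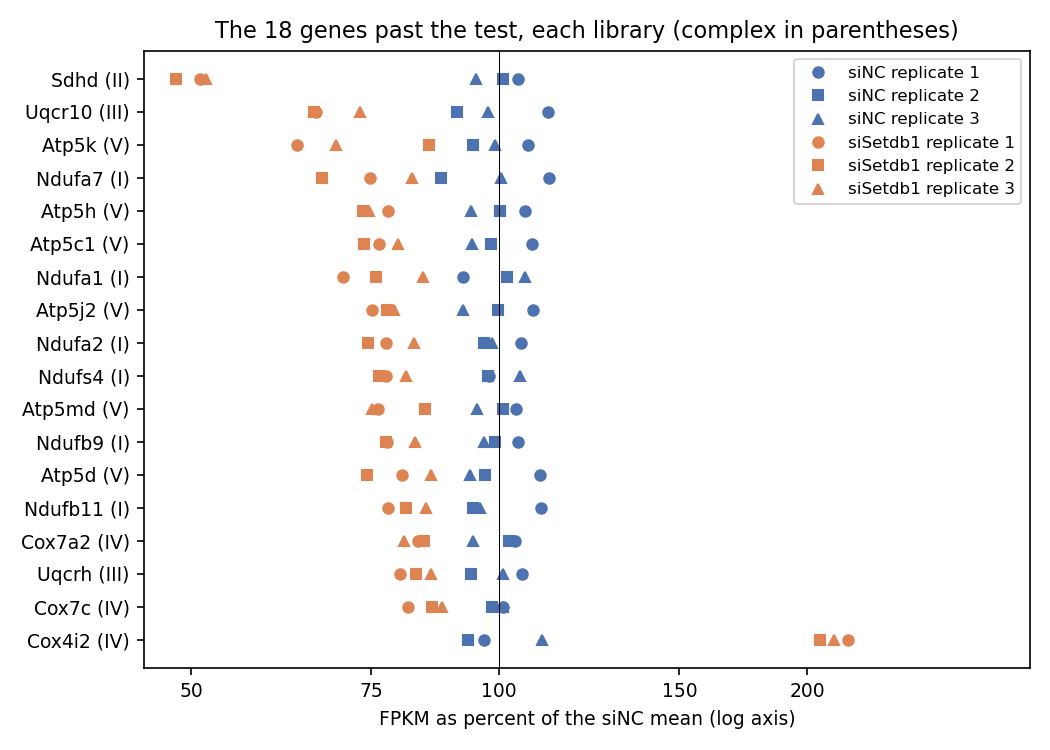
FPKM of the 18 genes past the test in each library, as percent of the gene's siNC mean (horizontal log axis), ordered by fold change. For 17 genes the siSetdb1 libraries lie to the left of all siNC libraries, with Sdhd lowest, and for Cox4i2 they lie to the right.

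Reads can be shared between a gene and its copies, and processed pseudogenes of subunit genes are many. Of the 83 genes, 32 have no 50-base stretch in another annotated gene. Among the 29 tested genes with neither such a stretch nor an exon base inside another gene, 5 fell. The background was 8.27% of all genes tested. The median of these 29 was -0.23, close to that of all 79. The subunit genes were short and abundant beside other genes, with a median of 1587 exon bases and 47.9 FPKM in siNC, against 3786 bases and 6.59 FPKM over all genes tested. Their median GC content was 50.3%, against 49.4%. With trends of the fold change with GC content and length removed, the median of the 79 genes was -0.17 and 18 fell. That is 22.8%, beside 10.3% of all genes lower in the same fit.

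Genes around the complexes gave a mixed picture. Assembly factors build the complexes without staying in them, and of those tested 2 of 15 fell for complex I (median -0.15), none of 4 for complex II (-0.02), none of 5 for complex III (-0.06), 2 of 18 for complex IV (-0.19) and 2 of 4 for complex V (-0.24). Atpaf1, which helps to assemble the F1 head, measured 2.54, 2.17 and 2.40 FPKM in siNC and 1.26, 1.10 and 0.90 FPKM in siSetdb1. The siSetdb1 libraries were all far below siNC (-0.70 ± 0.10 SE, adjusted p = 0.00567, limma). Tmem242, an assembly factor of the subunit c ring, fell from 13.8 ± 1.07 to 10.7 ± 0.75 FPKM (SD, n = 3, adjusted p = 0.0357). For complex I, Ndufaf5 (-0.43, adjusted p = 0.0366) and Ndufaf8 (-0.33, adjusted p = 0.0342) fell. For complex IV, Pet100 (-0.51, adjusted p = 0.00796) and Coa7 (-0.38, adjusted p = 0.0168) fell, and Cox15, which makes heme a, rose (0.26, adjusted p = 0.0340).

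The subunits that the mitochondrial genome encodes did not pass. Of its 13 mRNAs 12 were tested and none passed, with a median of 0.06. The summed FPKM of the 13 was 28727, 33130 and 33078 in siNC and 30688, 33008 and 32943 in siSetdb1, so the groups overlapped and siNC replicate 1 was the lowest library, whereas it was the highest for the nuclear genes. The most abundant, mt-Co1, the catalytic subunit of complex IV, measured 11629, 12833 and 12718 FPKM in siNC and 11919, 12117 and 12535 FPKM in siSetdb1 (-0.02, 95% interval -0.20 to 0.15). The tested mRNAs differed widely in level, with siNC means down to 7.84 FPKM for mt-Nd4l. The copy search did not cover the mitochondrial genes, so whether reads are shared with copies is not known. Among 19 tested electron carriers and donors, Coq9, needed for ubiquinone synthesis, fell (14.5 ± 1.17 to 10.8 ± 0.99 FPKM, SD, n = 3, adjusted p = 0.0293) and Coq10b, a ubiquinone-binding protein, rose (6.48 ± 0.66 to 9.41 ± 1.15 FPKM, adjusted p = 0.0266). That list also holds Ndufab1, a Nduf gene whose symbol the rule for subunit genes does not match. It did not pass (-0.24, adjusted p = 0.0646). Of 16 citrate cycle genes, 3 fell. Suclg2, a subunit of succinyl-CoA ligase, measured 21.1, 19.6 and 20.4 FPKM in siNC and 12.02, 11.6 and 10.5 FPKM in siSetdb1 (-0.79 ± 0.07 SE, adjusted p = 0.00151). The groups lay far apart. Mdh2 (-0.39, adjusted p = 0.0158) and Dlat (-0.33, adjusted p = 0.0135) were the others.

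**Figure D5:**
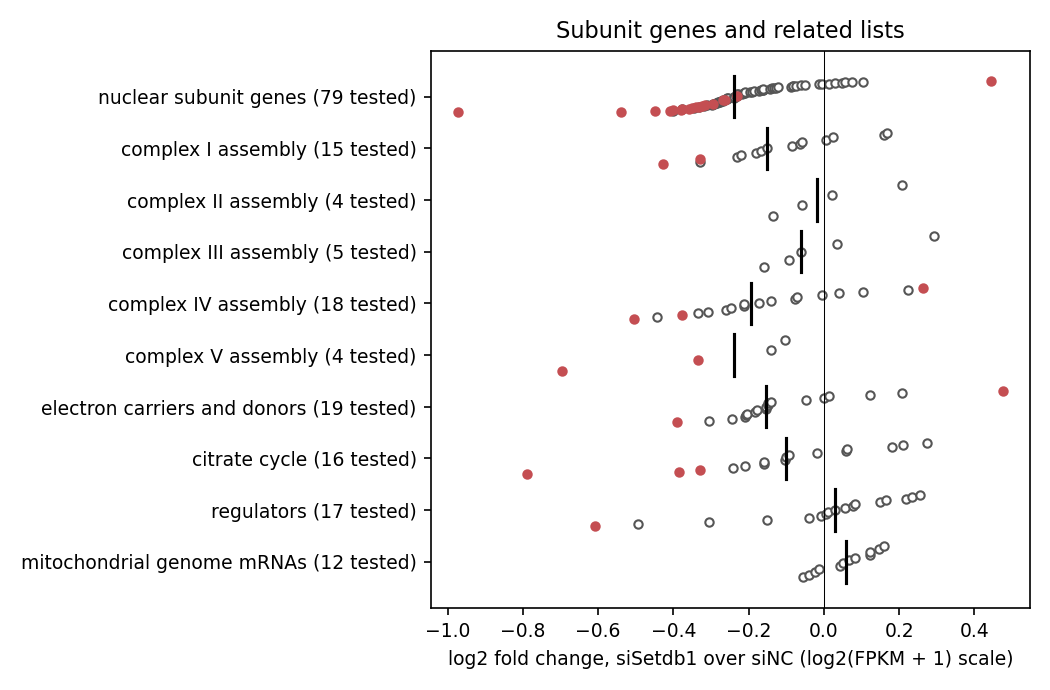
Log2 fold change of siSetdb1 over siNC (horizontal axis, computed on log2(FPKM + 1)) of each tested gene of the nuclear subunits and of 9 related lists. Filled points passed the test and vertical bars are medians, which run from -0.24 for the nuclear subunit genes and the complex V assembly factors to 0.06 for the mRNAs of the mitochondrial genome.

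Of 17 tested regulators of mitochondrial genes, 1 fell, none rose and the median was 0.03. All siSetdb1 libraries lay below all siNC libraries for 3 of them (17.6%, beside 21.6% of all genes tested). They lay above for 4, beside 17.6% of all genes tested. Esrra, an estrogen-related receptor, measured 18.9, 15.1 and 16.3 FPKM in siNC and 10.3, 10.0 and 11.6 FPKM in siSetdb1. All siSetdb1 libraries were below siNC (-0.61 ± 0.10 SE, adjusted p = 0.00825, limma). Ppargc1a, its coactivator, was low and did not pass, at 0.77, 1.01 and 1.57 FPKM in siNC and 0.47, 0.42 and 0.58 FPKM in siSetdb1 (-0.49, adjusted p = 0.0599). Its groups did not overlap, and the siNC libraries were spread wide. Nrf1 (5.03 ± 0.10 to 5.16 ± 0.24 FPKM, SD, n = 3), Gabpa (13.4 ± 2.36 to 14.8 ± 0.64 FPKM), Tfam (10.1 ± 0.87 to 10.1 ± 0.38 FPKM) and Yy1 (25.9 ± 0.81 to 26.9 ± 0.19 FPKM) did not pass, with log2 fold changes of 0.03, 0.15, 0.00 and 0.06. Ppargc1b, Esrrb and Esrrg lay below 0.1 FPKM and were not tested. Outside the subunit genes, those whose log2(FPKM + 1) followed the mean of the 79 most closely over the 6 libraries were Ethe1 (Pearson r = 0.998), Mrpl12 (0.998), Rplp2 (0.997), Nudt1 (0.997) and Rps15 (0.996). These r values describe libraries that share the group difference and the high siNC replicate 1, and carry no test.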

How the data were processed

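The authors deposited 1 table of FPKM values per gene and library, with 1 column for each of the 6 libraries. Its headers name no unit. With GENCODE M21 exon lengths, 98.6% of genes gave whole reads in every library within a tolerance of 0.01. Library totals and reads per gene were recovered in this way and were not taken from deposited counts. Build mm10 and the tools RSEM 1.2.12, HISAT2 2.0.4, DESeq2 1.4.5 and Bowtie2 2.2.5 are named, per the submitters' processing notes, without a role or order. Per the labels' protocols, single-end reads of 50 bases were made from oligo(dT)-selected RNA, and no step that marks strand is named.

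Genes reaching 0.5 FPKM in 3 or more libraries were tested in R 4.3.3 with limma 3.58.1, on log2(FPKM + 1) values (trend and robust variance prior, group as the only term). A log2 fold change on this scale understates the change of low genes. P-values are two-sided and Benjamini-Hochberg adjusted over all genes tested, with a threshold of 0.05. The fit was tested on simulated data. Lists and complexes are described by counts and medians, without a test of the list. Copies of the subunit genes were searched as exact 50-base stretches in GENCODE M21 transcripts.

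The subunit genes and all lists were chosen with earlier results of these data known. Named are all subunit genes past the test, in each complex the largest rise, largest fall and highest level, all Sdh genes, isoform families and untested genes, related genes past the test and 7 regulators. Other genes named (Ndufs3, Atp5o, Atp5f1, Atp5j, Cyc1, Timm8b, Esrrb, Esrrg, Ndufab1 and mt-Co1) were chosen after their values were seen. Alternatives were other pseudocounts, filters and scalings, limma-voom, a replicate block, GC and length correction and leaving out each library.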

Additional observations from a re-analysis of the deposited data

How the results depend on the processing

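Sdhd passed in all 14 alternative fits, and the median of the subunit genes was below 0 in each. The number of genes called (1945) was 890 without a filter and 1015 with a replicate block. The number of subunit genes that fell (17) was 7 without a filter (8.43%, beside 1.69% of all genes lower). It was 11 with median-ratio scaling (13.9%, beside 6.59%) and 6 with the block (7.59%, beside 4.16%). The number was larger, 21, with a filter of 1 FPKM (26.9%, beside 9.26%) and 22 with limma-voom (27.8%, beside 9.82%). In alternatives added after seeing the data, it was 9 with a common sum of FPKM (11.4%, beside 5.53%). Also added then, it was 5 among the 29 tested genes without shared stretches or overlapped exons, beside 8.27% of all genes. The count of 1 called higher, Cox4i2, was 0 with a filter of 1 FPKM, with limma-voom and with the block. With a common sum of FPKM the medians were -0.16 for all subunit genes, -0.10 for complex II, -0.16 for complex IV and -0.18 for complex V, beside 0.05 over all genes tested. Removing GC and length trends gave a complex IV median of -0.16. Leaving out Sdhd, also added after seeing the data, gave -0.083 for complex II. Signs turned for Atp5l (-0.029) and Ndufs1 (-0.017) with GC and length removed, and for Ndufs1 without siNC replicate 1 (-0.041 to 0.12 over the fits without 1 library). The cause of these changes was not tested. Leaving out 1 library at a time gave 683 to 2176 genes called, 2 to 19 subunit genes that fell and 0 to 1 called higher, and complex IV medians of -0.31 to -0.23. Each such fit has fewer samples. The deviations of same-numbered libraries from their group means correlated at -0.16, 0.17 and -0.17 across genes. With 3 libraries a group these deviations constrain each other, so the values cannot decide whether the replicate numbers pair the libraries. Low genes such as Cox4i2 rest on 6 to 14 reads a library, which limits what can be seen.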
